A study of Homo sapiens with 12 samples.

Results

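The genes that set the G1 restriction point were read in HEYA8 ovarian cancer cells: the D-type cyclins CCND1, CCND2 and CCND3, the E-type cyclins CCNE1 and CCNE2, the kinases CDK4 and CDK6, the INK4 inhibitors CDKN2A and CDKN2B, and the retinoblastoma gene RB1. They were chosen by name, which gave 10 of the 56269 genes in the table of counts. Of these 10 genes, 8 were among the 16069 genes that passed the filter on low counts. CDKN2A and CDKN2B had no counts in any of the 12 libraries.

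In background, D-type cyclins are made in response to growth signals and bind CDK4 or CDK6. The active kinase phosphorylates RB1, which then releases E2F transcription factors, and E2F raises the genes of DNA replication together with the E-type cyclins. Cyclin E with CDK2 phosphorylates RB1 further and starts S phase. The INK4 proteins p16 (CDKN2A) and p15 (CDKN2B) bind CDK4 and CDK6 and keep D-type cyclins off them, and TGF-β is known to raise p15 in epithelial cells that carry the gene.

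The 12 libraries form 4 groups of 3. All came from HEYA8, labelled as a high grade serous ovarian cancer line, kept in RPMI-1640 with 10% FBS. The cells were sampled at steady state in regular growth medium, and no added TGF-β is described for them. Control vector cells received the empty vector. The other groups stably expressed human betaglycan (BG, the product of TGFBR3), a TGF-β co-receptor that carries glycosaminoglycan (GAG) chains: ∆GAG-BG has both attachment serines replaced by alanine, while S534A (CS-BG) and S545A (HS-BG) each lack the 1 serine in their name. Expression came from a lentivirus that also encodes dTomato, by which infected cells were sorted, so every group is sorted cells of 1 cell line. Library 3 of S545A is titled S545S-3, and it was placed in that group by its genotype label, S545A. The sources do not say whether the 3 libraries of a group came from separate cultures, and p-values then measure the spread between these libraries, which may be technical.

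Several libraries stood apart before any comparison was made. TGFBR3, which the constructs encode, stood at 15.9, 259 and 259 CPM (counts of a gene per 1000000 counts of a library, TMM-scaled) in libraries 1, 2 and 3 labelled control vector, and at 260, 20.3 and 21.4 CPM in those labelled ∆GAG-BG. It ranged from 413 to 476 CPM in S534A and from 520 to 574 CPM in S545A. Libraries 2 and 3 labelled control vector thus held more TGFBR3 than libraries 2 and 3 labelled ∆GAG-BG, against their labels, and every direction drawn from these 2 groups below carries that doubt. Libraries 2 and 3 of control vector, ∆GAG-BG and S545A were also nearly alike. Their counts differed by a chi-square of 1.4 to 1.95 times its degrees of freedom, against 16.5 to 74.8 times for the other 9 pairs of one group. Libraries numbered 1 of control vector, S534A and S545A differed from each other by only 3.87 to 9.02 times, less than from the rest of their own groups. The library labelled ∆GAG-BG 1 differed from these by 48 to 70 times. The library S534A 2 and the library labelled ∆GAG-BG 1 lay far from the rest, and the chaperone gene HSPA5 (BiP) was at 287 CPM in the former and 11864 CPM in the latter against 1228 to 3906 CPM in the other 10. Total counts ran from 16410001 to 29504297 per library. Of 8 epithelial markers, CDH1 and MUC16 had no counts in any library and EPCAM reached at most 1.77 CPM, while PAX8 (193 to 295 CPM), KRT7 (746 to 1140 CPM) and KRT8 (688 to 1010 CPM) were present. Summed leukocyte markers were at 0.271 to 1.43 CPM over the libraries.

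The comparisons asked whether the level of G1 genes differed among the 4 groups, which differ by design in the attachment sites of betaglycan. No group received a construct with both attachment serines, and the level of TGFBR3 also differed among the groups. Effects of the attachment sites and of the TGFBR3 level therefore cannot be told apart here. No member differed among the 4 groups at an adjusted p under 0.05 (edgeR quasi-likelihood F test, Benjamini-Hochberg over 16069 genes), where 0.00622% of all genes did. In each of the 6 pairwise comparisons 0 of the 8 tested members passed, as did 0% of all genes. At an unadjusted p under 0.05 the F test found 1.55% of all genes and, of the members, CCNE2 alone (edgeR unadjusted p = 0.0428, adjusted p = 1). Such values occurred for CCNE2 in S534A against control vector, where they took 3.45% of all genes, and for CCNE1 and CCNE2 in S545A against S534A, where they took 4.78%. The other 4 comparisons had 0 members at that level in this fit. Against ∆GAG-BG it was reached by 2.99% of all genes in S534A and by 1.1% in S545A, and against control vector by 0.871% in ∆GAG-BG and 1.05% in S545A. The comparisons share groups, so their values are not independent of each other.

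**Figure D1:**
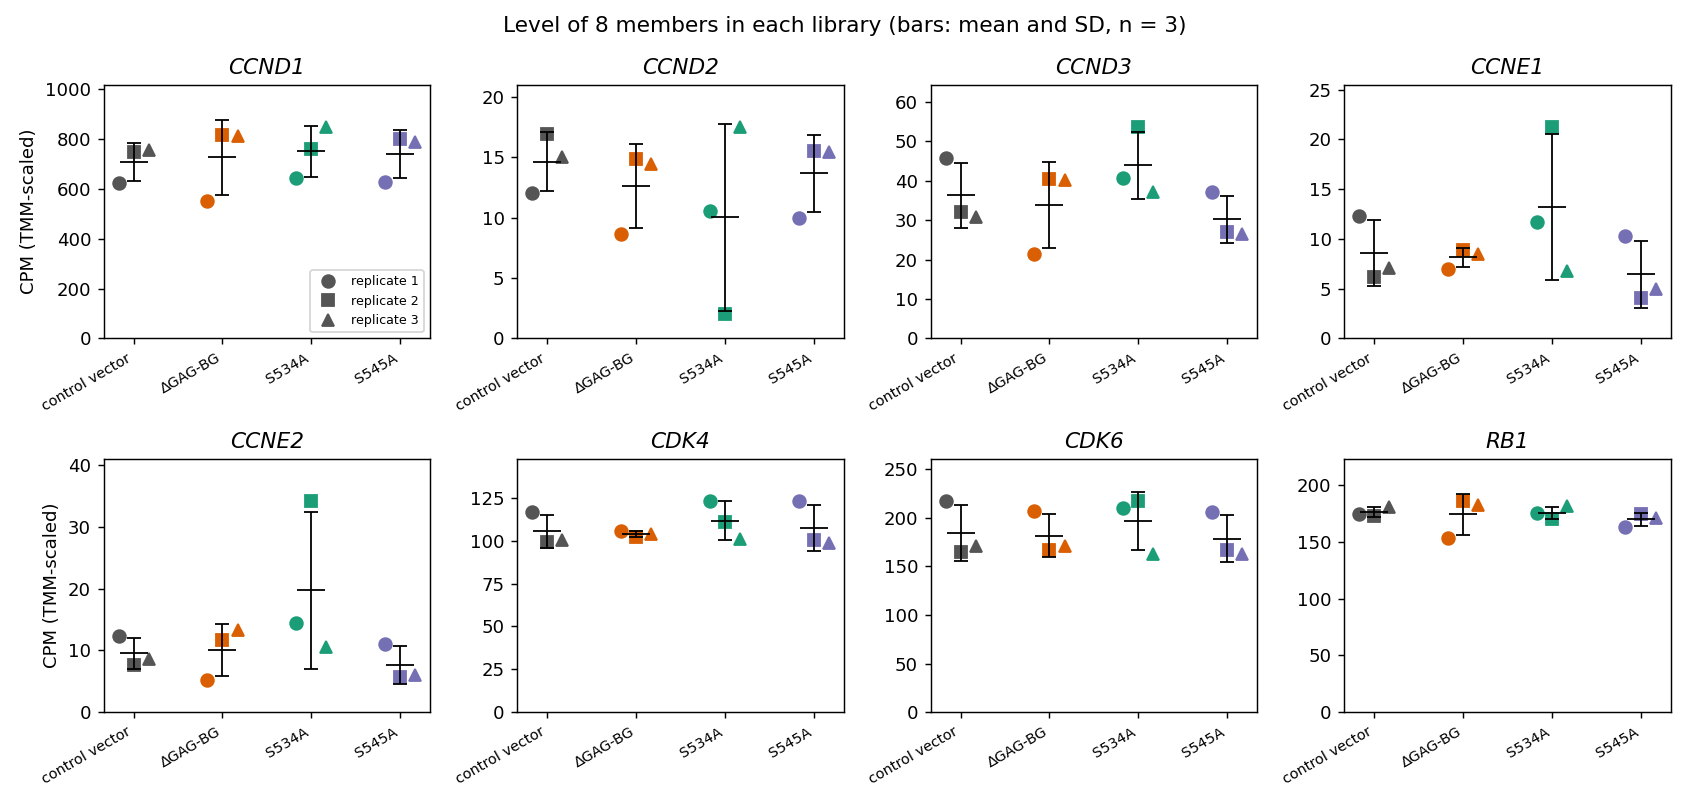
Level of the 8 members with counts (y axis, TMM-scaled CPM, from 0) in each library by labelled group; circles, squares and triangles are replicates 1, 2 and 3, and the bars give mean and SD (n = 3). CCND1 is lower in all 4 libraries numbered 1, CDK6 is higher in these and in S534A 2, and S534A 2 holds the highest CCNE1 (21.2 CPM) and CCNE2 (34.2 CPM) and the lowest CCND2 (2.04 CPM).

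CCND1, the D-type cyclin that many epithelial cancers overexpress, was by far the most abundant of the 3 (chromosome 11, 69641087 to 69654474, plus strand, GRCh38). It stood at 622, 749 and 757 CPM in libraries 1, 2 and 3 labelled control vector, at 554, 816 and 814 CPM in those labelled ∆GAG-BG, at 645, 762 and 848 CPM in S534A, and at 628, 800 and 790 CPM in S545A. The 4 groups overlapped, and the levels instead split by library number: the 4 libraries numbered 1 held 554 to 645 CPM and the other 8 held 749 to 848 CPM. A gap in that direction was seen for 1.82% of all genes tested, and the labels do not say what a library number stands for. The 6 fold changes lay between -0.02 and 0.08 on the log2 scale, and their 95% intervals together spanned -0.378 to 0.438. Changes of a size inside these intervals were not excluded, and the intervals do not set the smallest change that could be detected.

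CCND2, a D-type cyclin best known in lymphoid and gonadal cells, was low (chromosome 12, 4273772 to 4305350, plus strand). It stood at 12, 16.9 and 15 CPM in libraries 1, 2 and 3 labelled control vector, at 8.62, 14.9 and 14.4 CPM in those labelled ∆GAG-BG, at 10.5, 2.04 and 17.5 CPM in S534A, and at 10, 15.5 and 15.4 CPM in S545A. S534A held both the lowest and the highest value of the 12. The ratio of highest to lowest was 8.58, larger than that of 98.1% of the genes tested, and 11 of the 12 libraries lay at or above 8.62 CPM. With S534A 2 set aside, the 4 libraries numbered 1 held 8.62 to 12 CPM and the other 7 held 14.4 to 17.5 CPM, a gap in a direction found for 7.06% of all genes. Fold changes ran from -0.58 to 0.48 (log2), with intervals from -1.73 to 1.63.

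CCND3, the D-type cyclin with the widest distribution over tissues, lay between its paralogs (chromosome 6, 41934933 to 42050357, minus strand). It stood at 45.8, 32.1 and 30.7 CPM in libraries 1, 2 and 3 labelled control vector, at 21.3, 40.3 and 40.1 CPM in those labelled ∆GAG-BG, at 40.8, 53.5 and 37.2 CPM in S534A, and at 37.1, 26.9 and 26.6 CPM in S545A. All 3 S545A libraries lay below all 3 S534A libraries, but the highest S545A value (37.1 CPM) and the lowest S534A value (37.2 CPM) were almost equal. The difference was -0.54 (log2, 95% interval -1.09 to 0.0107, edgeR adjusted p = 0.702), and a gap in this direction was found for 4.8% of all genes. An exact two-sided permutation test gave p = 0.1, the smallest that 3 against 3 allows.

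Per kilobase of exon, CCND1 supplied most D-type cyclin mRNA. Its share of the summed CPM per kb of the 3 genes was 95% ± 0.884 (SD, n = 12) and ran from 93.1% to 96%. CCND3 supplied 3.93% ± 1.04 and CCND2 1.11% ± 0.324. By group the CCND1 share was 94.6% ± 1.31 in control vector, 95.3% ± 0.551 in ∆GAG-BG, 94.5% ± 0.624 in S534A and 95.5% ± 0.924 in S545A (SD, n = 3), and the ranges of the groups overlapped.

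CCNE1, the first of the E-type cyclins and a known target of gene amplification in ovarian cancer, was low (chromosome 19, 29811898 to 29824308, plus strand). It stood at 12.3, 6.22 and 7.09 CPM in libraries 1, 2 and 3 labelled control vector, at 7.03, 8.92 and 8.49 CPM in those labelled ∆GAG-BG, at 11.7, 21.2 and 6.74 CPM in S534A, and at 10.3, 4.12 and 4.95 CPM in S545A. The S534A and S545A ranges overlapped, and S534A 2 lay far above the other 11 libraries. S545A was lower than S534A by a log2 fold change of -1.05 (SE 0.429, 95% interval -1.99 to -0.104, edgeR unadjusted p = 0.0325, adjusted p = 0.702). Without S534A 2 the value was -0.529 (edgeR unadjusted p = 0.219). It was -0.811 (edgeR unadjusted p = 0.103) without S545A 2 and -0.88 (edgeR unadjusted p = 0.0947) without S545A 3.

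CCNE2, its paralog with the same partner kinase, followed a similar order (chromosome 8, 94879770 to 94896678, minus strand). It stood at 12.4, 7.59 and 8.61 CPM in libraries 1, 2 and 3 labelled control vector, at 5.26, 11.6 and 13.2 CPM in those labelled ∆GAG-BG, at 14.5, 34.2 and 10.5 CPM in S534A, and at 11.1, 5.78 and 5.98 CPM in S545A. The highest S545A value lay above the lowest S534A value. S545A was lower than S534A by -1.38 (log2, SE 0.46, 95% interval -2.39 to -0.369, edgeR unadjusted p = 0.0118, adjusted p = 0.702). S534A was higher than the libraries labelled control vector by 1.05 (SE 0.454, 95% interval 0.0592 to 2.05, unadjusted p = 0.0397, adjusted p = 0.871). Both were nearest 0 without S534A 2, at -0.714 (edgeR unadjusted p = 0.0968) and 0.391 (edgeR unadjusted p = 0.339). Without the library labelled control vector 2 the second was 0.915 (edgeR unadjusted p = 0.101), and without control vector 3 it was 0.984 (edgeR unadjusted p = 0.0876). The second was 0.661 (edgeR unadjusted p = 0.346) when libraries 2 and 3 labelled control vector and ∆GAG-BG were left out, a fit in which control vector is 1 library, assumed to vary like the other groups.

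Exons of CCNE2 share 1629 bases, 37% of their length, with exons of INTS8 on the other strand. INTS8, a subunit of the Integrator complex, had 28259 counts in all against 3583 for CCNE2, and the strand setting of the counting is not given in the sources used here. INTS8 varied little, from 84.5 to 117 CPM, and its level correlated with that of CCNE2 at Pearson r = 0.3 over the 12 libraries, which are not all independent. The part of the shared bases in the CCNE2 values was not tested.

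**Figure D2:**
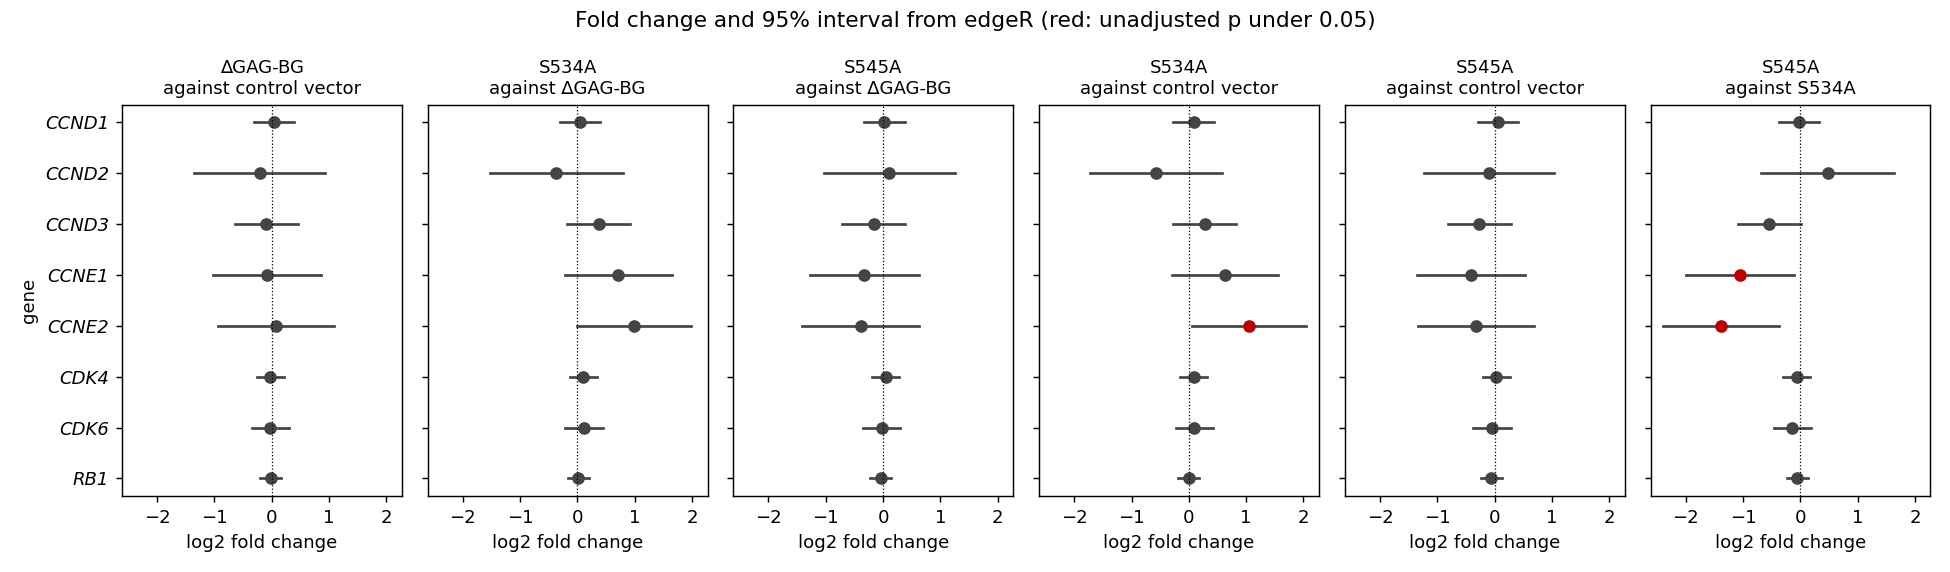
Log2 fold change (x axis) of the 8 members in each of the 6 comparisons, with 95% intervals as lines from the edgeR model; red points have an unadjusted p under 0.05. Only CCNE2 in S534A against control vector and CCNE1 and CCNE2 in S545A against S534A have intervals clear of 0, and the smallest adjusted p is 0.702.

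CDK4, a catalytic partner of the D-type cyclins, varied little (chromosome 12, 57747727 to 57756013, minus strand). It stood at 117, 99.1 and 100 CPM in libraries 1, 2 and 3 labelled control vector, at 106, 102 and 104 CPM in those labelled ∆GAG-BG, at 123, 111 and 101 CPM in S534A, and at 123, 100 and 98.7 CPM in S545A. The groups overlapped and the highest value was 1.25 times the lowest, and 11.1% of the genes tested had a smaller ratio. Fold changes ran from -0.06 to 0.11 (log2), with intervals from -0.293 to 0.341. CDK4 exons share 1369 bases (43.2%) with those of TSPAN31 on the other strand, which had 6388 counts in all against 31416. With S534A 2 set aside, CDK4 lay at 105.5 to 123 CPM in the 4 libraries numbered 1 and at 98.7 to 104.1 CPM in the other 7. These ranges almost touched, and a gap in that direction was found for 5.42% of all genes.

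CDK6, the other D-type cyclin kinase, split by library number (chromosome 7, 92604921 to 92836594, minus strand). It stood at 217, 165 and 171 CPM in libraries 1, 2 and 3 labelled control vector, at 207, 167 and 171 CPM in those labelled ∆GAG-BG, at 210, 217 and 162 CPM in S534A, and at 206, 166 and 163 CPM in S545A. The 4 libraries numbered 1 and S534A 2 held 206 to 217 CPM and the other 7 held 162 to 171 CPM, with none between. With S534A 2 set aside, a gap in that direction between the libraries numbered 1 and the other 7 was found for 5.42% of all genes. These readings of the library numbers were made after the values were seen. Between groups the log2 fold change was at most 0.14 in size, with intervals from -0.465 to 0.442.

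Per kilobase CDK4 exceeded CDK6 in every library, by a ratio of 2.25 ± 0.151 (SD, n = 12; 1.98 to 2.4). In the groups the ratio was 2.23 ± 0.131 in control vector, 2.24 ± 0.222 in ∆GAG-BG, 2.22 ± 0.215 in S534A and 2.33 ± 0.02 in S545A (SD, n = 3).

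RB1, the substrate of these kinases, varied least of the members (chromosome 13, 48303751 to 48481986, plus strand). It stood at 175, 173 and 181 CPM in libraries 1, 2 and 3 labelled control vector, at 154, 186 and 183 CPM in those labelled ∆GAG-BG, at 176, 171 and 181 CPM in S534A, and at 164, 175 and 172 CPM in S545A. The library labelled ∆GAG-BG 1 was lowest, and the others lay between 164 and 186 CPM. Fold changes were at most 0.05 in size (log2), with intervals from -0.237 to 0.196.

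**Figure D3:**
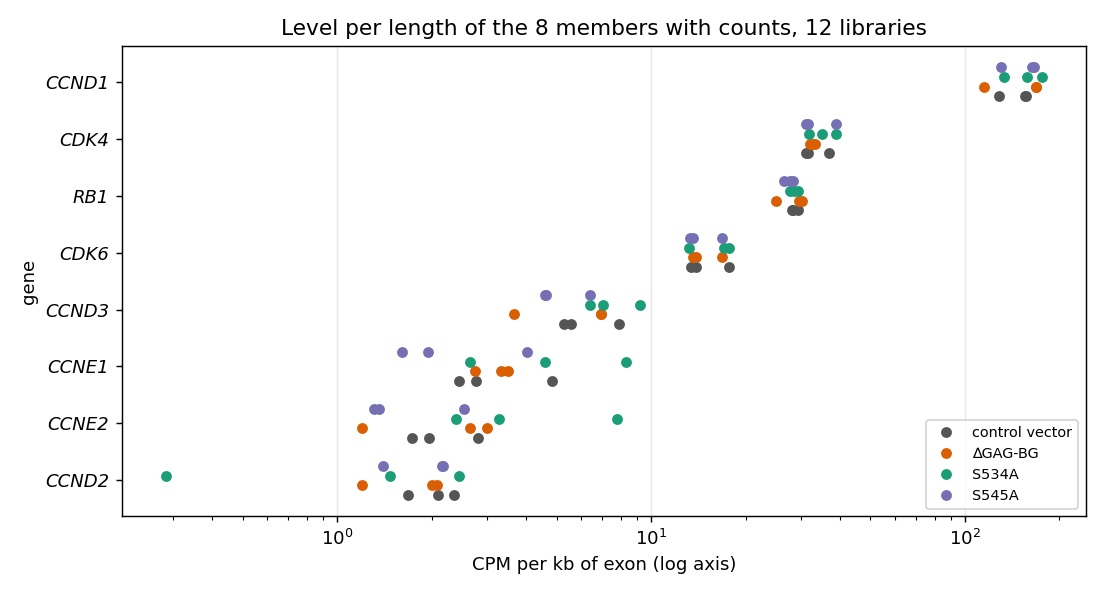
TMM-scaled CPM per kb of exon (x axis, log scale) for the 8 members with counts, 12 points a gene, coloured by labelled group. CCND1 lies at 115 to 176, above CDK4 at 31.1 to 38.9, while CCNE1, CCNE2 and CCND2 overlap at the bottom.

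Per kb the members ranged from CCND1 at the top to CCND2 at the bottom. CCND1 had a median of 157 CPM per kb, CDK4 of 32.5, RB1 of 28.3 and CDK6 of 13.9, and the ranges of these 4 genes did not overlap, although the lowest CDK4 value (31.1) was close to the highest RB1 value (30.2). CCND3 had a median of 6.4, CCNE1 of 3.05, CCNE2 of 2.46 and CCND2 of 2.05 CPM per kb, and each of these overlapped its neighbour in the order.

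The INK4 genes CDKN2A (chromosome 9, 21967753 to 21995301, minus strand) and CDKN2B (chromosome 9, 22002903 to 22009363, minus strand) had 0 counts in each of the 12 libraries. At these depths a count of 0 allows up to 3 counts, or 0.102 to 0.183 CPM in a library and 0.0103 CPM over the 291674417 counts of all libraries, limits that cover counting error only. Counts of 0 reached beyond these genes. The nearest genes with at least 1000 counts in all were KLHL9 (24656 counts, ending at 21335380) and CAAP1 (7957 counts, starting at 26840685), 5.51 Mb apart. All 13 protein-coding genes between them were at 0. They include MTAP, the salvage enzyme for methylthioadenosine that most cells express, the transcription factor gene DMRTA1, ELAVL2, TUSC1 and IZUMO3, as well as 6 interferon genes of the cluster there, which are silent in most resting cells. The antisense RNA gene CDKN2B-AS1 was also at 0.

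Of the 53 rows in this stretch 51 were at 0. The other 2 were processed pseudogenes, KHSRPP1 with 23 counts and CLIC4P1 with 107, whose sequence is shared with genes elsewhere, so that the source of their reads is uncertain. Toward the end of the short arm, FOCAD stood at 62.3 to 82 CPM, HACD4 at 21.6 to 30.6 CPM and KLHL9 at 68.1 to 89 CPM, while 9 interferon genes between HACD4 and KLHL9 were at 0 and IFNW1 had 2 counts in all. A stretch of the chromosome that is missing and one that is present but not transcribed cannot be told apart by RNA counts. A count of 0 in this table can also come from its making: all 37 mitochondrial genes, some of which every cell transcribes strongly, were at 0 too, and whether the 9p rows were affected in the same way was not tested.

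**Figure D4:**
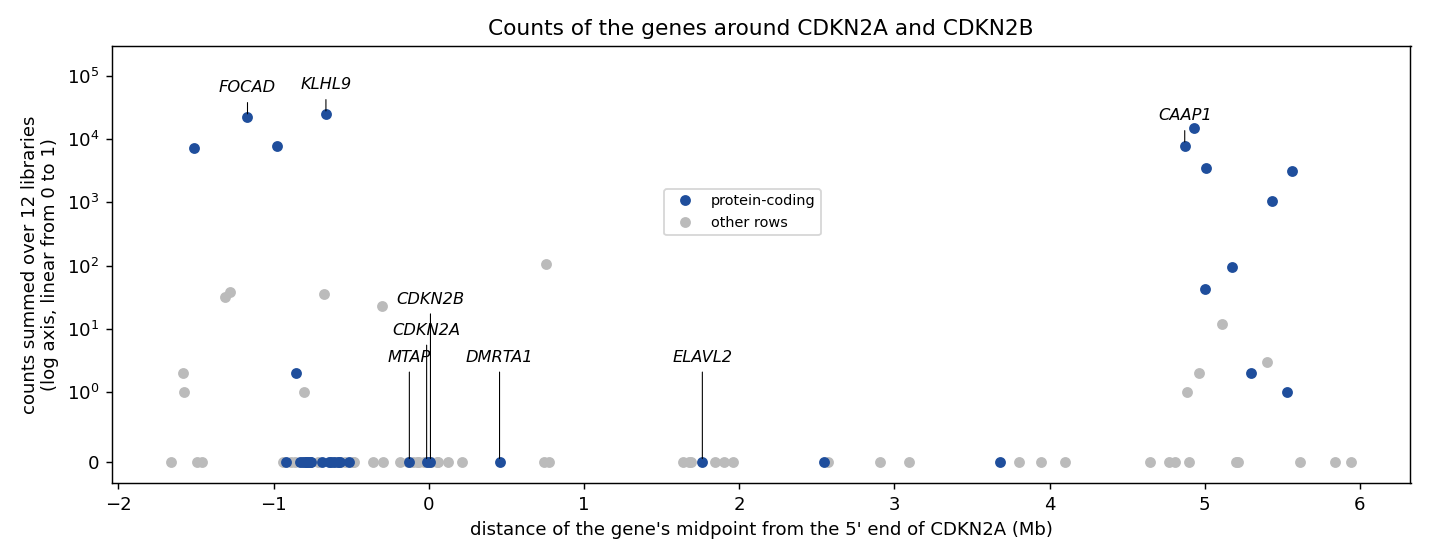
Counts summed over the 12 libraries (y axis, log scale above 1) against the distance of each gene's midpoint from the 5′ end of CDKN2A (x axis, Mb); blue points are protein-coding genes and grey points other rows. Between KLHL9 and CAAP1 all 13 protein-coding genes lie at 0.

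The other inhibitors of G1 kinases were all present. CDKN1A (p21), which inhibits CDK2, had the highest level of them, at 256, 279 and 263 CPM in libraries 1, 2 and 3 labelled control vector, 328, 240 and 234 CPM in those labelled ∆GAG-BG, 220, 436 and 263 CPM in S534A, and 243, 294 and 301 CPM in S545A. S534A 2 was again the extreme library. CDKN1B (p27) lay between 46.2 and 63.7 CPM, and CDKN1C (p57) between 3.56 and 10.4 CPM. Among the INK4 genes outside 9p, CDKN2C (p18) lay between 4.99 and 17.6 CPM and CDKN2D (p19) between 5.57 and 8.45 CPM. CDKN2C was lowest in the library labelled ∆GAG-BG 1 (4.99 CPM) and highest in the other 2 of that label (17.6 and 16.7 CPM). None of the 5 genes passed in any comparison, at an adjusted or an unadjusted p under 0.05.

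Genes around CDK2 and RB1 were read from lists. Of 10 genes that activate CDK2 or turn over the cyclins, 0 passed at an adjusted p in any comparison. CDK7, the kinase that activates CDK2 and CDK4, had the smallest p, at 37.3, 34.3 and 37.4 CPM in S534A and 39.7, 42.8 and 41.4 CPM in S545A. The groups did not overlap, as for 5.31% of all genes in this direction. The difference was 0.18 (log2, SE 0.0783, edgeR unadjusted p = 0.0359, adjusted p = 0.702). CDK2 itself went the other way, at 73.3, 83.7 and 64.6 CPM in S534A and 62.4, 45.9 and 47.8 CPM in S545A. These ranges did not overlap either, as for 4.8% of all genes in that direction. Of 12 genes for RB1 relatives, E2F factors and their DP partners, 0 passed, and E2F6, a repressor of the family, had -0.23 in S545A against S534A (SE 0.1, edgeR unadjusted p = 0.043, adjusted p = 0.702). Without S534A 2 these were 0.146 for CDK7 (edgeR unadjusted p = 0.0808) and -0.139 for E2F6 (edgeR unadjusted p = 0.17).

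The 16 E2F targets of DNA replication and S phase came last. In S545A against S534A, 0 of 16 passed at an adjusted p, 1 had a fold change above 0, the median was -0.555 (log2) against -0.00024 over all genes, and 4 (CDC6, CDC45, PCNA and RRM2) had an unadjusted p under 0.05 with a value below 0, as 2.68% of all genes did. CDC6, which loads the replicative helicase, had the smallest p of the list. It stood at 97.7, 140 and 69.5 CPM in S534A and at 81.8, 39.1 and 38.6 CPM in S545A, ranges that overlapped. The difference was -0.95 (SE 0.336, 95% interval -1.68 to -0.211, unadjusted p = 0.0162, adjusted p = 0.702), and -0.653 without S534A 2. The list's summed level was 1338 CPM in the library labelled ∆GAG-BG 1 against 2848 and 2817 CPM in libraries 2 and 3 of that label. It was 3031, 2022 and 2042 CPM in libraries 1, 2 and 3 labelled control vector, and 2288 to 3357 CPM in S534A. Libraries 2 and 3 of S545A, which were nearly alike, held 1649 and 1647 CPM against 2685 CPM in library 1. Against control vector the list had a median of 0.27 in S534A (14 of 16 above 0) and -0.25 in S545A (0 of 16 above 0). Over all genes the medians were 0.0078 and 0.00052. These comparisons share the control libraries, and no gene of the list passed in either. Genes of a list can vary together, so the counts of their signs are not separate results.

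**Figure D5:**
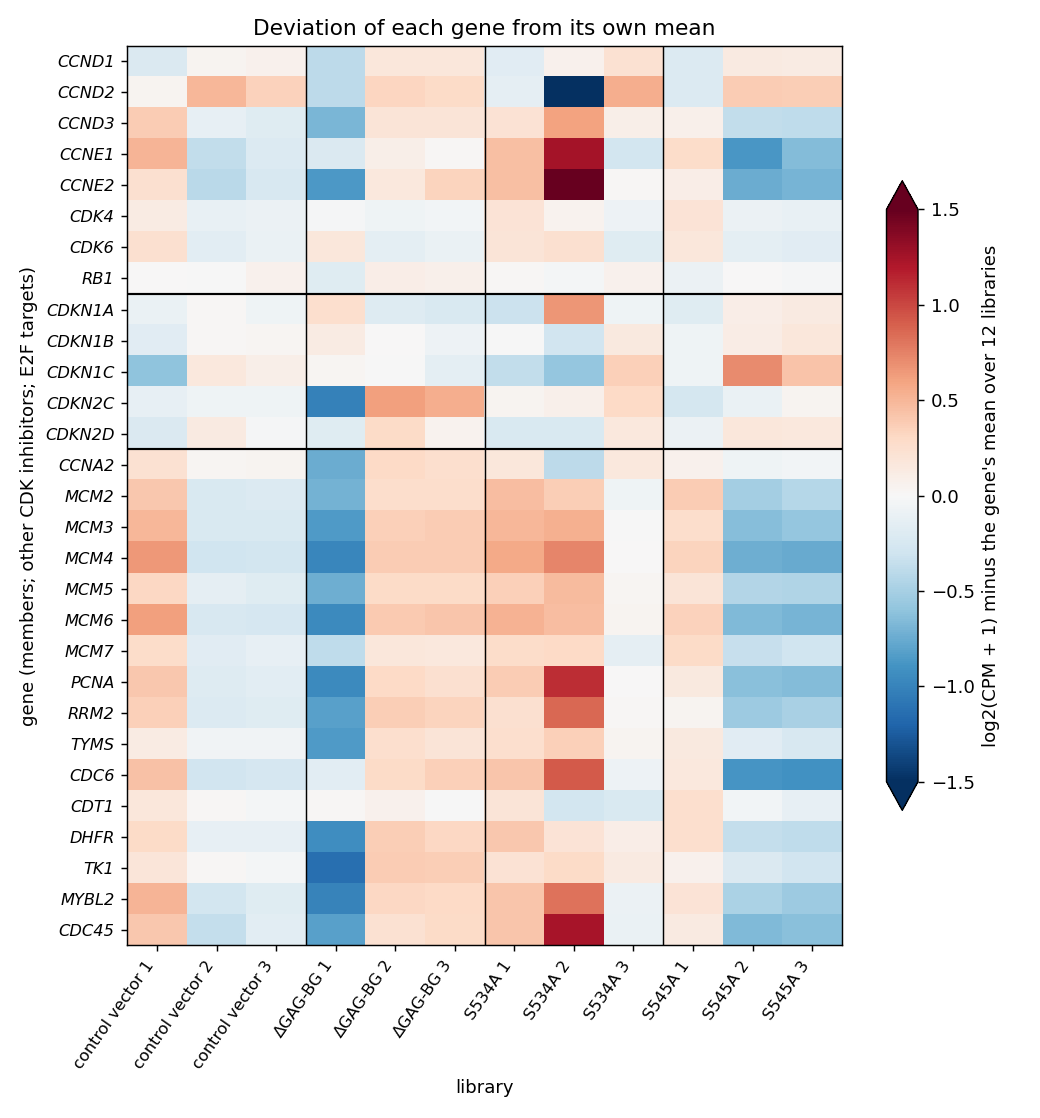
Deviation of each gene from its own mean over the 12 libraries (colour, log2(CPM + 1)); rows are 8 members, 5 other CDK inhibitors and 16 E2F targets, columns are libraries by labelled group. S534A 2 and the library labelled ∆GAG-BG 1 hold the strongest colours, and CCND3, CCNE1 and CCNE2 take the pattern of the E2F targets.

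Across the libraries some members rose and fell together. On log2(CPM + 1), CCND3 correlated with CCNE2 at Pearson r = 0.922 and with CCNE1 at 0.817, CCNE1 with CCNE2 at 0.913, and CDK4 with CDK6 at 0.853. CCNE1 also correlated with CDK6 at 0.768 and with CDK4 at 0.685, so these pairs did not form separate sets. CCND1 correlated with CDK6 at -0.783, and CCND2 correlated with CCNE1 at -0.788 and with CDK6 at -0.722. These are descriptions over 12 libraries that share groups and, for libraries 2 and 3 of 3 groups, nearly alike counts. Without S534A 2 and S545A 2, CCNE1 with CCNE2 was 0.788. Without ∆GAG-BG 1 and S534A 2, CCND3 was 0.944 with CCNE2 and 0.91 with CCNE1. With the mean of the 16 E2F targets, CCND3 had r = 0.974, CCNE2 0.882 and CCNE1 0.805, while CDK4 had 0.572, RB1 0.47, CDK6 0.384, CCND1 0.112 and CCND2 -0.358. Leaving out the 2 libraries farthest from the median of the targets (∆GAG-BG 1 and S545A 3) gave 0.948 for CCND3, 0.853 for CCNE2 and 0.91 for CCNE1. The other values moved more with these 2 libraries left out, to 0.697 for CDK6, 0.64 for CDK4, -0.0582 for RB1, -0.373 for CCND1 and -0.593 for CCND2. S534A 2, the library with the highest mean of the targets, stayed in, as did S545A 2, which is nearly alike to S545A 3. How far the correlations with the targets rest on S534A 2 was not tested.

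The non-member genes most like each member were taken as the 2 with the highest r over the 12 libraries. For CCNE2 these were CDC45, a part of the replicative helicase (r = 0.986, 9.61 to 42.9 CPM), and SIVA1 (0.984). For CCNE1 they were FHOD1 (0.987) and WDR5 (0.983), for CCND3 GPRIN1 (0.994) and ICMT (0.993), and for CCND2 FNBP1L and SCRN1 (both 0.991). CCND1 was nearest to KLF2 (0.981) and EFEMP1 (0.97), CDK4 to RNF138 and SMURF2 (both 0.968), CDK6 to OCIAD2 (0.977) and MARS2 (0.976), and RB1 to TXNDC16 and IDI1 (both 0.967). Likeness of this size was common: r over 0.9 was reached by 468 genes for CCND3 and 465 for CCND2, and by 43 for RB1. It also depended on single libraries. Without the 2 libraries farthest from a member's median, r was 0.888 and 0.883 for RB1 with TXNDC16 and IDI1. It was then 0.917 for CCND2 with FNBP1L, and 0.918 or more for the other pairs.

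Because CCNE1 took the pattern of E2F targets across libraries, its promoter is shown beside that of MCM6, a helicase subunit of the target list. Both are from RefSeq (GRCh38.p14), 5′ to 3′ on the gene's strand, and end before the first base of the gene's row in the table or at the RefSeq start. Capitals mark the GC box letters GGGCGG and the E2F letters TTTGGCGC, TTTCCCGC, TTTCGCGC and TTTGCCGC on either strand, where the last 4 can overlap each other.

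CCNE1 (chr19:29811741-29811897, plus strand): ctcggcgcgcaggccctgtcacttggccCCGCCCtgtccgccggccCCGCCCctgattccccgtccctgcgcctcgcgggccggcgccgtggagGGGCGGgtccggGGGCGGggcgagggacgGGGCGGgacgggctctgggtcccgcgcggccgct
MCM6 (chr2:135876444-135876693, minus strand): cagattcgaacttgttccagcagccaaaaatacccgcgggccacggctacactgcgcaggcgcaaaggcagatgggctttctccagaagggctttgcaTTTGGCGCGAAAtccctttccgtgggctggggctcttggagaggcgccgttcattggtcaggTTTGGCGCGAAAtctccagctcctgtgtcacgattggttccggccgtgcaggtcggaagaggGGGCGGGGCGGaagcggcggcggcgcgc

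The CCNE1 stretch holds 5 GC boxes and 0 E2F matches in 157 bases, and the MCM6 stretch holds 2 GC boxes and 4 E2F matches in 250 bases. MCM6 had the most E2F matches of the targets with an entry, so it is not typical of the list. Other targets, MCM2, CDC6 and MYBL2 among them, had 0 as CCNE1 did. Over the 250 bases before the RefSeq start, the E2F letters were found in 0 of 11 promoters of 7 members with an entry, in 6 of 20 promoters of the E2F targets and in 2.79% of all 35116 promoters. The GC box was found in 7 of the 11 and in 42.6% of all. A match is a description of letters, and no match says only that these letters are not in the window.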

How the data were processed

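RNA-seq was made from 12 HEYA8 libraries with a NEBNext Ultra II kit, which the labels call directional. The authors deposited a single table that holds raw counts by gene with exon lengths. The submitters' processing notes name FastQC, Trim Galore 0.4.5, STAR 2.4, SAMtools 1.2 and featureCounts. Those notes list mouse builds, but the table holds human genes: 33648 of its symbols have the coordinates of GENCODE 29 on GRCh38. The strand setting is not given in the sources used here.

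Low genes were removed with filterByExpr (minimum count 10, groups given), libraries were scaled by TMM, and the 4 groups entered 1 robust quasi-likelihood fit in edgeR 4.0.16 under R 4.3.3, which left 8 residual degrees of freedom. Adjusted p-values are Benjamini-Hochberg over all 16069 genes tested, and intervals are at 95%. Total counts per library set the limits that a count of 0 allows (3 counts), and these cover counting error only. Levels per kb divide TMM-scaled CPM by the table's exon length. Correlations used log2(CPM + 1). Fits were tested on simulated data.

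The members and lists were chosen with earlier results of these data known. Named were all 10 members; a member's fold change where its unadjusted p was under 0.05; the gene of each list with the smallest such p; all other CDK inhibitors; 9p neighbours; and the 2 genes most like each member. Of 9 neighbours on 9p, 8 symbols matched. The levels of CDK2 in S534A and S545A were added after values were seen. The splits of CCND1, CCND2, CDK4 and CDK6 by library number, the CCND3 gap, CDC45, PCNA and RRM2 among the E2F targets, INTS8, TSPAN31, TUSC1, IZUMO3, IFNW1, the 2 pseudogenes and HSPA5 were chosen after values were seen. The alternatives were DESeq2 1.42.0, RLE, library size only, no filter, limma-voom (limma 3.58.1), the 2 groups alone, the replicate number as a block, each library left out, libraries 2 and 3 summed, and libraries 2 and 3 labelled control vector and ∆GAG-BG left out.

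In S545A and control vector, libraries that carry the same number moved together about the means of their groups (correlations of 0.73, 0.48 and 0.48). Libraries 2 and 3 were nearly alike in both groups, so these correlations are not separate evidence of pairing. The values given for that comparison come from the fit without pairs, and the replicate number entered as a block only in an alternative fit. In the other 5 comparisons at least 1 pair had a correlation of 0.1 or less.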

Additional observations from a re-analysis of the deposited data

How the results depend on the processing

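No alternative called a member. The count of members past an adjusted p under 0.05 was 0 in the F test under 20 alternatives and 0 in each of the 6 comparisons under 15, with every library left out in turn. DESeq2 and limma-voom, too, called 0 members. With the replicate number as a block the count stayed 0 in the F test and in all 6 comparisons, S545A against control vector included, and the block changed no adjusted call. The 6 fold changes with an unadjusted p under 0.05 that the report gives (CCNE2 in 2 comparisons, CCNE1, CDK7, CDC6 and E2F6) kept their sign under all 15 alternatives; the other fold changes were not recomputed. The number of members at an unadjusted p under 0.05 did move: from 0 (without S534A 2, or with libraries 2 and 3 summed) to 4 (without S534A 3) in S545A against S534A, with 3 by DESeq2, from 0 to 3 (without S534A 3) in S534A against control vector, from 0 to 2 (without S534A 3) in S534A against ∆GAG-BG, with 1 by DESeq2, and from 0 to 2 in the F test. It reached 1 in ∆GAG-BG and in S545A against control vector when libraries 2 and 3 labelled control vector and ∆GAG-BG were left out, and stayed 0 in S545A against ∆GAG-BG. The range over libraries left out was 0.391 to 1.34 for CCNE2 in S534A against control vector, -1.75 to -0.714 for CCNE2 and -1.55 to -0.529 for CCNE1 in S545A against S534A, with the value nearest 0 without S534A 2 each time. With that block edgeR gave 0.977 (unadjusted p = 0.0727), -1.3 and -1.05. With libraries 2 and 3 summed, edgeR gave -1.23 (unadjusted p = 0.0604) for CCNE2 in S545A against S534A. At an unadjusted p under 0.05 in place of the adjusted one, S545A against S534A held 2 of the 10 genes around CDK2, 1 of the 12 RB1 and E2F genes and 4 of the 16 E2F targets, against 4.78% of all genes. E2F6 there was -0.226 with the replicate block (edgeR unadjusted p = 0.0513) and was past that p in 6 of 15 alternatives. With 3 libraries a group, of which 2 are nearly alike in 3 groups, precision was least for CCND2, CCNE1 and CCNE2, whose 95% intervals ran from -1.73 to 1.63, -1.99 to 1.65 and -2.39 to 2.05 over the 6 comparisons.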

Other observations

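Among the markers of other cell types, the endothelial genes CDH5 and TIE1 stood out. CDH5 (VE-cadherin) lay between 168 and 431 CPM over the 12 libraries and TIE1, an endothelial receptor kinase, between 267 and 362 CPM. VWF lay between 2.64 and 14.9 CPM, PECAM1 reached at most 0.768 CPM and KDR at most 3.77 CPM. The sum of the 5 endothelial markers was mostly CDH5 and TIE1. It was 618 to 737 CPM in the libraries labelled control vector and 673 to 702 CPM in those labelled ∆GAG-BG. In S534A it was 442 to 736 CPM and in S545A 589 to 796 CPM, and CDH5 was lowest in S534A 2. None of these 5 genes passed at an adjusted or an unadjusted p under 0.05 in any comparison.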
